A study of Homo sapiens with 6 samples.

Results

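The cytosolic ribosomal proteins are the protein part of the ribosome that translates nuclear mRNAs. They were chosen by name, as every protein-coding gene whose symbol is RPL or RPS followed by a number, alone or with a final A, X or L, together with RPSA, RPLP0, RPLP1 and RPLP2. Pseudogenes were left out. This rule found 81 of the 61552 gene identifiers in the count tables, 49 of the large subunit and 32 of the small subunit. Of the 81 genes, 76 passed the filter on low counts and are among the 17084 genes tested. The filter asks for enough counts in as many libraries as 1 group has, so the other 5 are described by their counts.

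The cells were MDA-MB-231, an established human line of triple-negative breast cancer. They were exposed for 24 h to 10 μM VNLG-152R, a retinamide described as a degrader of the kinases MNK1 and MNK2, or to the DMSO vehicle, with 3 libraries of polyadenylated RNA per group. The methods state that the cells were treated in triplicate before RNA was isolated. Neither they nor the labels say whether the 3 treatments were separate experiments, so the p-values cover the spread between these samples only, part of which may be technical. VNLG-152R libraries held 69923839, 74297292 and 82151816 counts in genes and control libraries 60122936, 60831391 and 68583224, so each treated library was deeper than each control. The line's mesenchymal markers were abundant in all 6 libraries. In CPM (counts scaled to the same library total by TMM), VIM lay at 3397 to 5166, CD44 at 574 to 721, AXL at 907 to 1206 and MSN at 1404 to 1799. ESR1 lay at 0 to 0.0967 CPM, PGR at 0.352 to 0.580 CPM and GATA3 at 4.04 to 5.66 CPM. Of the markers of other cells, PTPRC and ALB were at most 0.103 CPM, and EPCAM, PECAM1 and COL1A1 lay between 11.0 and 26.5 CPM.

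Each ribosome carries a small subunit, which reads the mRNA, and a large subunit, which joins amino acids and holds the peptide exit tunnel. Nearly all of its proteins are present in a single copy, so their mRNAs are made and translated in concert. Ribosomal protein mRNAs start with a C followed by a run of pyrimidines, the 5′ terminal oligopyrimidine (TOP) motif, through which mTORC1 and the RNA-binding protein LARP1 set how strongly they are translated and how stable they are. MNK1 and MNK2 phosphorylate the cap-binding protein eIF4E, which works on the same mRNA cap.

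The start regions below are shown because this pyrimidine run is what most of these genes share beyond their name. They come from RefSeq on GRCh38.p14 and give 40 bases before the annotated start and 20 bases from the start onward, 5′ to 3′ on the gene's strand. Capitals mark uninterrupted runs of at least 8 C or T. RPS12, RPS24 and RPL19 are the genes that passed the test, RPLP0 is the stalk protein with one of the highest levels, and RPS9 and RPS26 are the genes with the widest spread between libraries.
RPS12, chr6:132814529-132814588, plus strand: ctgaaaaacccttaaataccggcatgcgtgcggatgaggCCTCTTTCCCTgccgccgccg
RPS24, chr10:78033823-78033882, plus strand: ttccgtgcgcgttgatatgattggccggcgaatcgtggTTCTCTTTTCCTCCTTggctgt
RPL19, chr17:39200243-39200302, plus strand: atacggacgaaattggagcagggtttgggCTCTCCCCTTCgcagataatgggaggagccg
RPLP0, chr12:120201092-120201151, minus strand: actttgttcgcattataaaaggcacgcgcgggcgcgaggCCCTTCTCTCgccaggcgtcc
RPS9, chr19:54200818-54200877, plus strand: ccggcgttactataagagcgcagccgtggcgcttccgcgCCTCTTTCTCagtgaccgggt
RPS26, chr12:56041878-56041937, plus strand: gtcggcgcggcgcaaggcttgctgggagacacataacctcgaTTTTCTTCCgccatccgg

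The longest run was 16 bases in RPS24, 11 in RPS12 and in RPL19, 10 in RPLP0 and in RPS9, and 9 in RPS26. In RPS12, RPS24, RPLP0 and RPS9 it lay across the annotated start, in RPL19 it ended just before it, and in RPS26 it began within the first bases of the transcript. RefSeq start regions were matched for 64 of the 81 genes. Within 25 bases on either side of the start, a run of at least 8 C or T on the gene's strand was present in 52 of the 64 (81.2%), against 5600 of 27305 start regions of all genes (20.5%). The letters CCTTT stood on the gene's strand in 26 of the 64 (40.6%) and on the opposite strand in 5 (7.81%), against 5.63% and 5.32% of all start regions. TCTTT, whose first T can be the last T of a CCTTT, stood on the gene's strand in 19 (29.7%) and on the opposite strand in 1 (1.56%), against 6.003% and 4.95% of all start regions. These matches describe the letters only.

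After VNLG-152R, mRNAs of ribosomal proteins stood slightly below their control levels, and most single genes did not pass the test. The log2 fold change (VNLG-152R over control, after TMM normalization) was below 0 for 72 of the 76 tested genes, against 50.4% of all tested genes. Its median over the 76 was −0.21, with quartiles of −0.28 and −0.14, and the median over all tested genes was −0.00. RPS12, RPS24 and RPL19 (3.95% of the 76) fell at an adjusted p under 0.05 by edgeR, and 0 rose. Of all tested genes 1.43% fell and 3.76% rose, 5.19% in either direction. DESeq2 called 12 of the 76 lower, against 3.1% of all tested genes, and edgeR without the filter on low counts 15, against 1.5%. With 1 library left out, edgeR called 3 lower without VNLG-152R replicate 1, against 1.98% of all tested genes. It called 15 without VNLG-152R replicate 2, against 0.82%, and 1 without control replicate 2, against 0.81%. It called 0 when VNLG-152R replicate 3, control replicate 1 or control replicate 3 was the one left out, against 0.25% to 0.59%. At an unadjusted p under 0.05, 34 of the 76 were lower and 0 higher, against 9.76% of all tested genes lower. In 32 of the 76 every VNLG-152R library was below every control library, a pattern held by 13.4% of all tested genes, and in 0 of the 76 was it the other way round (15.1% of all tested genes). Bulk RNA pools many cells. Less of these mRNAs in every cell and fewer cells with a high level of them thus cannot be told apart. Counts are also relative to the total of each library, so a lower level here does not give the amount of these mRNAs per cell.

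**Figure D1:**
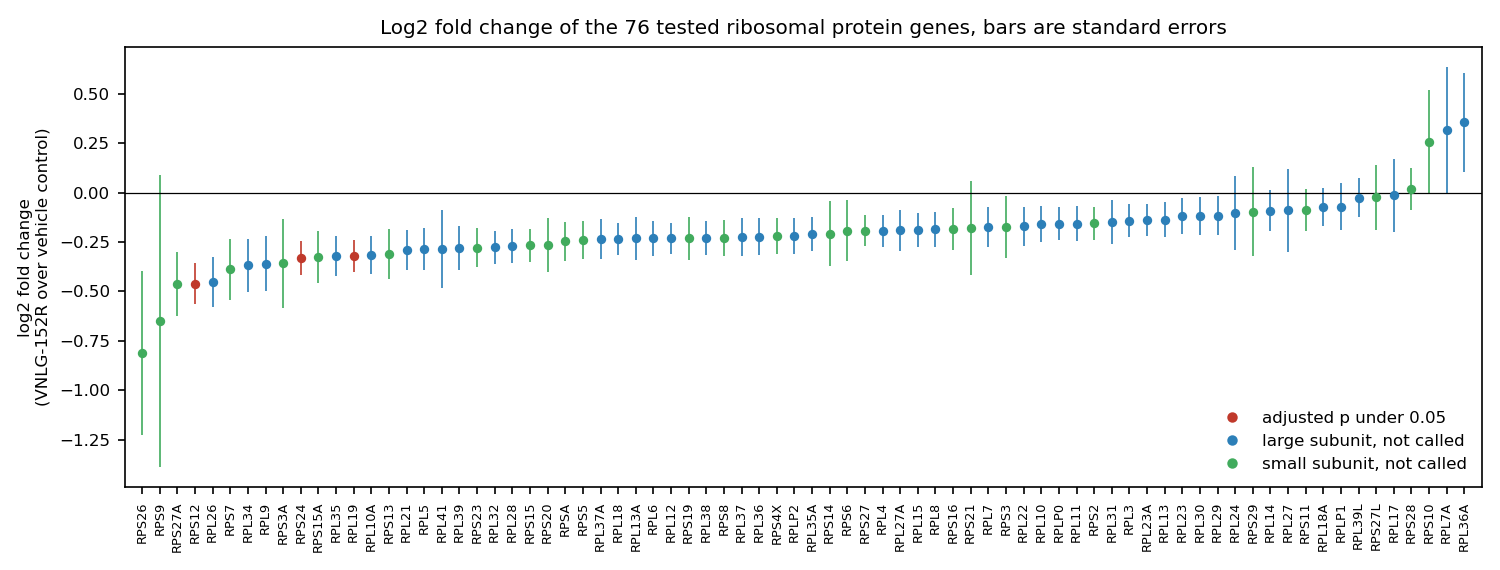
The vertical axis gives the log2 fold change (VNLG-152R over control) of each of the 76 tested ribosomal protein genes, ordered by that value, with bars for the standard error and colors for the subunit. Of the points 72 lie below 0, and the 3 genes that passed the test, in red, are RPS12, RPS24 and RPL19.

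The lower level was unevenly carried by the VNLG-152R libraries. The ribosomal protein genes together held 2.66%, 3.36% and 2.93% of gene counts in VNLG-152R replicates 1 to 3, and 3.51%, 3.32% and 3.43% in control replicates 1 to 3. VNLG-152R replicate 2 thus lay within the control range while replicates 1 and 3 lay below it. The group means were 2.98% ± 0.352 with VNLG-152R and 3.42% ± 0.0966 in controls (SD, n = 3 each). Large subunit genes held 2.004% ± 0.183 with VNLG-152R and 2.28% ± 0.0382 in controls, and small subunit genes 0.979% ± 0.169 with VNLG-152R and 1.146% ± 0.0620 in controls. With 3 libraries per group the smallest two-sided p of an exact permutation test is 0.10, so no test of these shares was made.

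**Figure D2:**
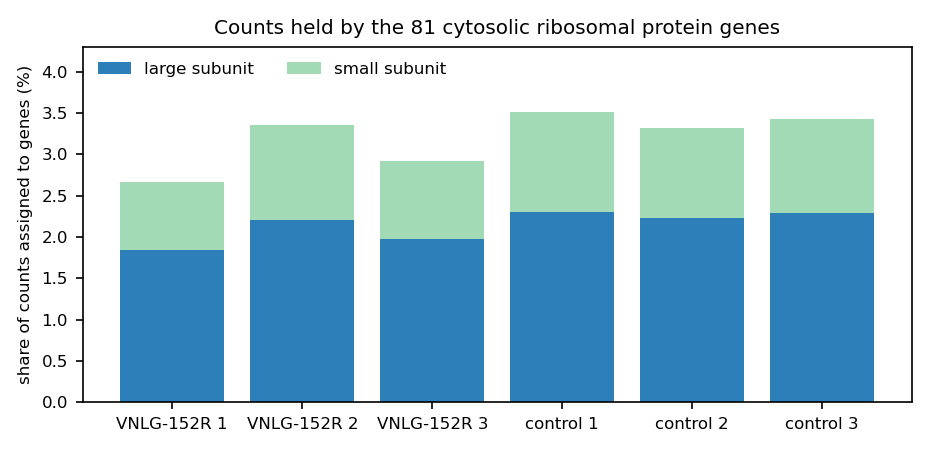
Stacked bars give the percent of gene counts held by large and small subunit genes in each of the 6 libraries, VNLG-152R left of control. VNLG-152R replicates 1 and 3 (2.66% and 2.93% in all) lie below the 3 controls (3.32% to 3.51%), and replicate 2 (3.36%) lies among them.

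The same unevenness was seen gene by gene. Relative to each gene's own mean over the 6 libraries, the median deviation of the 76 genes was −0.20, 0.05 and −0.15 (log2) in VNLG-152R replicates 1 to 3, and 0.14, 0.08 and 0.13 in control replicates 1 to 3. VNLG-152R replicate 1 was below every control for 69 of the 76 genes and replicate 3 for 66, but replicate 2 for 35. In 16 genes, among them RPS3, RPS6, RPS14, RPS21, RPS29, RPL24 and RPL27, replicate 2 was above every control. Leaving out VNLG-152R replicate 2, every VNLG-152R library kept was below every control in 66 of the 76 genes (86.8%). This pattern was held by 19.0% of all tested genes. This library was singled out after its values were seen to lie among the controls, so a higher count follows in part from the choice. Leaving out any other library gave 32 to 40 genes with VNLG-152R below control in this way (42.1% to 52.6%), against 16.5% to 20.02% of all tested genes. The edgeR fit without VNLG-152R replicate 2 called 15 of the genes lower at an adjusted p under 0.05, against 0.82% of all tested genes. Of RPS12, RPS24 and RPL19 it kept RPS12. VNLG-152R replicate 2 also had the largest share of read pairs outside annotated genes (5.05%, against 3.52% and 3.36% in VNLG-152R replicates 1 and 3 and 2.63% to 3.17% in controls), and its part in the result was not tested. The coefficient of variation of a gene between libraries had a median of 12.1% with VNLG-152R and 6.17% in controls, and was larger with VNLG-152R in 57 of the 76 genes.

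**Figure D3:**
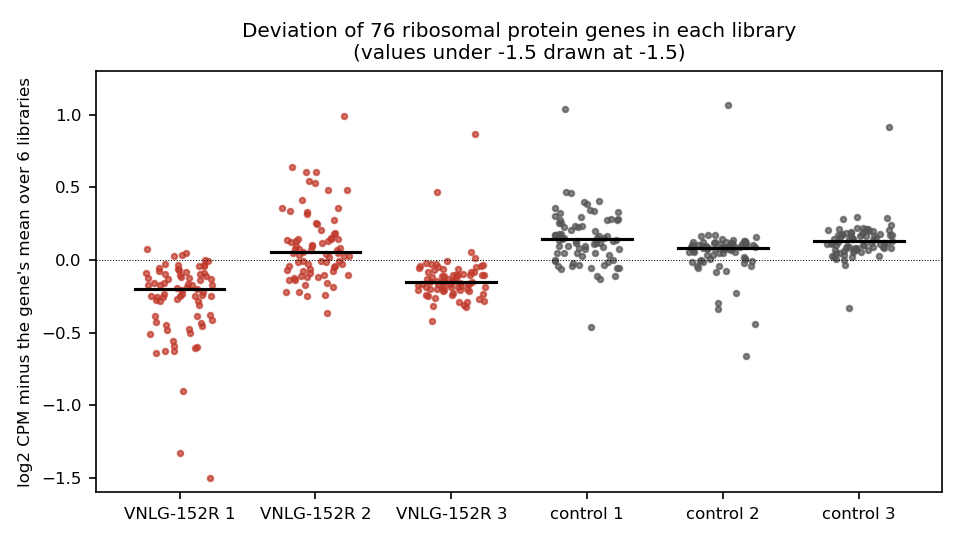
Log2 deviation of each of the 76 tested genes from its mean over the 6 libraries, 1 column of points per library with a line at its median, VNLG-152R left of control. The medians of VNLG-152R replicates 1 and 3 are −0.20 and −0.15, that of replicate 2 is 0.05, and those of the controls are 0.08 to 0.14.

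RPS12 (ENSG00000112306, chr6:132814441-132817564 on GRCh38), a small subunit protein at the beak of the head, had the lowest adjusted p of the group. RPS12 held 201.4, 256.7 and 213.8 CPM with VNLG-152R, against 331.9, 283.1 and 309.0 CPM in controls. All 3 treated libraries lay below all 3 controls, at a mean of 224 ± 29.01 CPM against 308 ± 24.4 CPM (SD, n = 3 each). On the log2 scale it fell by 0.46, with a standard error of 0.10 and an adjusted p of 0.0266. The call held in 12 of 16 alternative fits. Of the fits with 1 library left out, it was lost when VNLG-152R replicate 3, control replicate 1 or control replicate 3 was left out, with an adjusted p of at most 0.107.

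RPL19 (chr17:39200283-39204732), a large subunit protein whose long C-terminal helix reaches across to the small subunit, had closely spaced controls. It had 493.2, 456.3 and 503.1 CPM with VNLG-152R, against 611.9, 596.0 and 605.8 CPM in controls. The groups were well apart, at 484 ± 24.7 CPM against 605 ± 8.05 CPM (SD, n = 3 each). RPL19 fell by 0.32 on the log2 scale (standard error 0.08, adjusted p = 0.0436). The call held in 9 of 16 alternative fits, and of the fits with 1 library left out it held only without VNLG-152R replicate 1 (adjusted p between 0.0424 and 0.173).

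RPS24 (chr10:78033732-78056813), a small subunit protein needed for processing of the 18S rRNA precursor and mutated in some patients with Diamond-Blackfan anemia, fell by 0.33 on the log2 scale (standard error 0.09, adjusted p = 0.0485). It had 424.6, 410.4 and 445.2 CPM with VNLG-152R, against 582.8, 511.1 and 516.8 CPM in controls. Its adjusted p was just under the threshold and lay between 0.0608 and 0.154 when any 1 library was left out, so its call rests on all 6 libraries.

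**Figure D4:**
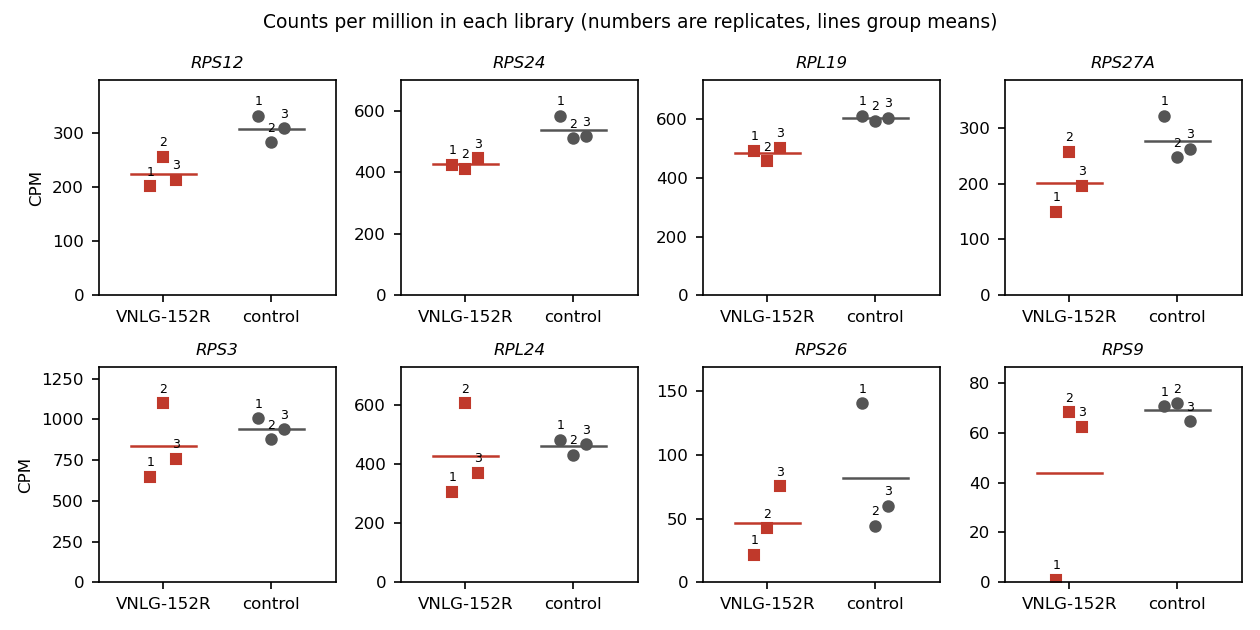
Each panel gives the CPM of 1 ribosomal protein gene in every library, VNLG-152R left of control, with the replicate number at each point and lines for the group means. RPS12, RPS24 and RPL19 have all VNLG-152R libraries below all controls, while the controls of RPS26 range between 44.4 and 140.8 CPM and RPS9 has a single VNLG-152R library near 0.

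Several other genes had log2 fold changes of similar size without passing the test. RPS27A encodes ubiquitin fused to a small subunit protein. It had 149.6, 257.6 and 196.9 CPM with VNLG-152R, against 322.1, 247.5 and 263.4 CPM in controls, for a log2 fold change of −0.46 at an adjusted p of 0.117. Its VNLG-152R replicate 2 lay between the controls. RPL26, a large subunit protein at the exit tunnel that also binds the p53 mRNA, had 8.46, 11.7 and 10.3 CPM with VNLG-152R, against 15.6, 12.8 and 13.3 CPM in controls. Its groups did not overlap, and the log2 fold change was −0.45 (adjusted p = 0.0596). The log2 fold changes of RPS7, RPL34 and RPL9 were −0.39, −0.37 and −0.36, with adjusted p of 0.155, 0.136 and 0.156. In RPS3A, a small subunit protein near the mRNA exit, VNLG-152R libraries held 257.4, 617.3 and 446.8 CPM and controls 639.4, 506.4 and 545.8 CPM. The treated libraries differed from each other more than the groups did (log2 fold change −0.36, adjusted p = 0.375). With 1 library left out, the log2 fold changes of RPS27A, RPS7, RPL34, RPL9 and RPS3A were most negative without VNLG-152R replicate 2, at −0.68, −0.58, −0.58, −0.51 and −0.68. They were nearest to 0 without VNLG-152R replicate 1, at −0.29, −0.20, −0.24, −0.18 and −0.08.

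The most negative log2 fold changes among tested genes belonged to RPS26 and RPS9, and both rested on single libraries. RPS26, a small subunit protein that contacts the mRNA upstream of the start codon, had 21.7, 42.4 and 75.4 CPM with VNLG-152R, against 140.8, 44.4 and 60.2 CPM in controls. The 2 groups overlapped, and control replicate 1 alone was far higher than the rest (log2 fold change −0.81, standard error 0.42, adjusted p = 0.272). Its log2 fold change was −1.35 without VNLG-152R replicate 3 and −0.17 when control replicate 1 was left out. RPS9 (chr19:54200742-54249003), a small subunit protein of the decoding region, had 78, 5210 and 5162 counts with VNLG-152R, against 4289, 4323 and 4398 in controls. VNLG-152R replicate 1 thus held 1.153 CPM where the other 5 libraries held 62.4 to 71.8 CPM. The log2 fold change was −0.65 with a standard error of 0.74 (adjusted p = 0.641), and −0.08 without VNLG-152R replicate 1. None of its 100-base windows is shared with another transcript of the GENCODE annotation. Only 58352 of the 61552 counted gene identifiers have a length there, so copies outside that annotation were not searched for. Within 500000 bases on either side of RPS9, 17 of 33 protein-coding genes had 0 counts in all libraries (51.5%), against 17.7% of all protein-coding genes.

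Both subunits are represented in this pattern. Of 47 tested large subunit genes 45 had a log2 fold change below 0 (median −0.19) and 22 had groups that did not overlap, each VNLG-152R library being below each control (46.8%, against 13.4% of all tested genes). Of 29 tested small subunit genes 27 were below 0 (median −0.23) and 10 had such groups (34.5%). The difference between subunits was not tested. In the P stalk, which recruits the elongation factors, RPLP0 had 1439, 1406 and 1471 CPM with VNLG-152R, against 1599, 1604 and 1606 CPM in controls. Its control libraries were nearly equal, all above the treated ones, and the log2 fold change was −0.16 (adjusted p = 0.284). The other stalk proteins RPLP1 and RPLP2 had log2 fold changes of −0.07 and −0.22 (adjusted p = 0.760 and 0.170), and the groups of RPLP1 overlapped. RPL12, at the base of the stalk, had 588, 589 and 588 CPM with VNLG-152R, against 680, 717 and 673 CPM in controls, and its groups did not overlap (log2 fold change −0.23, adjusted p = 0.115).

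RPL5 and RPL11 join the 5S rRNA and, when free, bind the p53 ligase MDM2. RPL5 had 531, 682 and 682 CPM with VNLG-152R, against 802, 757 and 750 CPM in controls (log2 fold change −0.29, adjusted p = 0.134), and the groups did not overlap. RPL11 had 470, 522 and 437 CPM with VNLG-152R, against 537, 543 and 512 CPM in controls, and VNLG-152R replicate 2 lay among the controls (log2 fold change −0.16, adjusted p = 0.333). RPS6, the S6 kinase substrate downstream of mTORC1, had 399, 692 and 486 CPM with VNLG-152R, against 616, 584 and 603 CPM in controls. Replicates 1 and 3 were below and replicate 2 above all controls, and the log2 fold change was −0.19 (adjusted p = 0.489). RPS3, a small subunit protein at the mRNA entry, showed the same order, with 648, 1099 and 759 CPM with VNLG-152R against 1008, 879 and 939 CPM in controls (log2 fold change −0.17, adjusted p = 0.545). RPL24, at a bridge between the subunits, had 307, 606 and 370 CPM with VNLG-152R, against 482, 431 and 466 CPM in controls (log2 fold change −0.10, adjusted p = 0.782). Without VNLG-152R replicate 2, RPS6, RPS3 and RPL24 had log2 fold changes of −0.44, −0.42 and −0.44 (adjusted p = 0.0344, 0.0455 and 0.0380). That library and these genes were picked after their values were seen, so the lower values follow in part from the choice. Over the fits with 1 library left out, their log2 fold changes reached −0.03, −0.02 and 0.09, and their adjusted p reached 0.925, 0.956 and 0.983. RPSA, the protein also known as the laminin receptor, had 475, 581 and 502 CPM with VNLG-152R, against 662, 585 and 601 CPM in controls (log2 fold change −0.25, adjusted p = 0.159), and its groups lay close together without overlapping. RPL3, at the peptidyl transferase center, and RPL10, which joins the subunit late, had log2 fold changes of −0.14 and −0.16 (adjusted p = 0.346 and 0.323).

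Paralogs with tissue-restricted or stress-linked expression were silent or low. RPL3L, known in heart and skeletal muscle, and RPL10L, known in testis, had 0 counts in every library, which allows at most 0.0365 to 0.0499 CPM per library at a limit of 3 counts. RPL39L had 23.1, 28.8 and 23.6 CPM with VNLG-152R, against 24.7, 25.9 and 26.2 CPM in controls, and its groups overlapped (log2 fold change −0.02, adjusted p = 0.908). Its parent RPL39, on the X chromosome, had 80.2, 102.8 and 84.1 CPM with VNLG-152R, against 96.5, 109.2 and 118.8 CPM in controls (log2 fold change −0.28, adjusted p = 0.154). RPS27L, a p53 target, had 20.3, 36.3 and 25.8 CPM with VNLG-152R, against 30.6, 25.8 and 27.4 CPM in controls, and its groups overlapped (log2 fold change −0.02, adjusted p = 0.949). RPS27 had 183.7, 177.2 and 168.3 CPM with VNLG-152R, against 206.3, 198.5 and 200.2 CPM in controls, and its groups did not overlap (log2 fold change −0.19, adjusted p = 0.167). The difference between each paralog and its parent was not tested.

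Several genes of core ribosomal proteins were at or near 0 in these tables. RPS18 had 0 counts in all 6 libraries. RPS25 had 0 counts in 5 libraries and 23 counts in control replicate 3. RPL7A had 19, 29 and 22 counts with VNLG-152R, against 12, 14 and 21 in controls, where the median gene of the 81 had a mean count of 25640. Reads placed on more than 1 locus are in no gene's count, so a count near 0 does not show that the mRNA was absent. RPS18, RPS25, RPL3L and RPL10L are among the 5 genes that the filter left out. In all, 13 of the 81 genes had a mean count under 10% of that median. Besides those just named these included RPS10, RPL17, RPL36A, RPL26, RPL39L, RPS15A and RPS27L.

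Reads of ribosomal protein genes are easily split between copies. Of the 81 genes, 61 share at least 1 window of 100 bases of transcript sequence with a GENCODE transcript of another gene. Over 50% of the windows are shared in 15 of the 81. The annotation holds 1586 pseudogenes named after these genes, 621 of which had a count. Pseudogenes of RPS18 held 4156, 11458 and 6513 counts with VNLG-152R, against 6166, 8817 and 10699 in controls, while RPS18 itself was at 0. Nearly all of these were on RPS18P12 on chromosome 17 (2770, 7749 and 4361 counts with VNLG-152R, against 3841, 3977 and 5033 in controls) and RPS18P5 on chromosome 3 (1266, 3566 and 2022 counts with VNLG-152R, against 2233, 4770 and 5585 in controls). Pseudogenes of RPL7A held 5012, 7145 and 7356 counts with VNLG-152R, against 4733, 5712 and 6317 in controls. Most of these lay on RPL7AP6 on chromosome 14, which had 4158, 6117 and 6256 counts with VNLG-152R, against 3888, 4867 and 5246 in controls. For both genes the counts recorded under pseudogene names thus far exceeded those under the gene's own name, whereas pseudogenes of RPS25 held at most 3 counts in any library. Pseudogenes of RPL17, RPL36A and RPS10 also held more counts than the gene itself, at least 953%, 702% and 621% of its counts in every library. Which locus those reads came from was not tested. Near RPS18, 17 of 37 protein-coding genes within 500000 bases had 0 counts in all libraries (45.9%), and near RPL7A 12 of 26 (46.2%), against 3 of 32 near RPS25 (9.38%).

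The 4 tested genes with a log2 fold change above 0 were RPL36A, RPL7A, RPS10 and RPS28, of which 3 were at low counts. RPL36A had 133, 208 and 152 counts with VNLG-152R, against 148, 71 and 101 in controls (log2 fold change 0.36, adjusted p = 0.425). RPL7A had a log2 fold change of 0.32 on the counts above (adjusted p = 0.594). RPS10 had 73, 126 and 70 counts with VNLG-152R, against 62, 47 and 80 in controls (log2 fold change 0.26, adjusted p = 0.594). All 3 had overlapping groups. RPL36A shares 77.3% and RPS10 80.6% of their windows with other transcripts, among them the readthrough genes RPL36A-HNRNPH2 and RPS10-NUDT3, so their counts are uncertain. RPL17, which overlaps the readthrough gene RPL17-C18orf32 and shares 86.0% of its windows, had 192, 269 and 204 counts with VNLG-152R, against 183, 139 and 243 in controls (log2 fold change −0.01, adjusted p = 0.976). RPS28 was the exception at 117.1, 149.9 and 115.4 CPM with VNLG-152R, against 122.4, 122.6 and 132.4 CPM in controls (log2 fold change 0.02, adjusted p = 0.934).

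The pseudogenes held 0.129%, 0.180% and 0.150% of gene counts with VNLG-152R, against 0.164%, 0.170% and 0.176% in controls. As with the genes, VNLG-152R replicates 1 and 3 lay below all controls and replicate 2 did not. Of the 161 tested pseudogenes 119 had a log2 fold change below 0 (73.9%, against 50.4% of all tested genes), with a median of −0.17. At an adjusted p under 0.05, 2 were lower and 0 higher. The 2 lower ones are 1.24% of the pseudogenes, near the 1.43% of all tested genes, so the count does not set the pseudogenes apart. They were RPS15P4 on chromosome 2 (26.2 CPM with VNLG-152R against 34.8 CPM in controls on average, log2 fold change −0.41, adjusted p = 0.0230) and RPL3P4 on chromosome 14 (19.5 CPM with VNLG-152R against 27.2 CPM in controls, log2 fold change −0.48, adjusted p = 0.0333). Without VNLG-152R replicate 2 or 3, or control replicate 1 or 3, neither passed the test, nor did RPL3P4 without control replicate 2, with adjusted p of up to 0.121 for RPS15P4 and 0.122 for RPL3P4. Counting genes and pseudogenes together, the share of gene counts was 3.14% ± 0.378 with VNLG-152R and 3.59% ± 0.0944 in controls (SD, n = 3 each).

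Ribosomal protein mRNAs are short, and log2 fold change varied with transcript length over all genes. Across the 16731 tested genes with a known transcript length, Spearman's rho between log2 fold change and length was 0.20, and across the 76 ribosomal protein genes it was 0.12. Genes share libraries and are not independent replicates, so no p is given. Of 2742 tested genes with a transcript of at most 1000 bases, 56.5% had a log2 fold change below 0 and 1.35% were lower at an adjusted p under 0.05. Without the ribosomal protein genes, the 2693 short genes had a median of −0.05, against −0.22 for the 49 short ribosomal protein genes and −0.19 for the 27 with longer transcripts. After the trend with length was removed within each library, the median of the 76 genes was −0.16, against −0.01 for all genes, and 70 of them were below 0. The correction left RPS12 as the 1 gene lower at an adjusted p under 0.05, against 1.34% of all genes fitted.

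**Figure D5:**
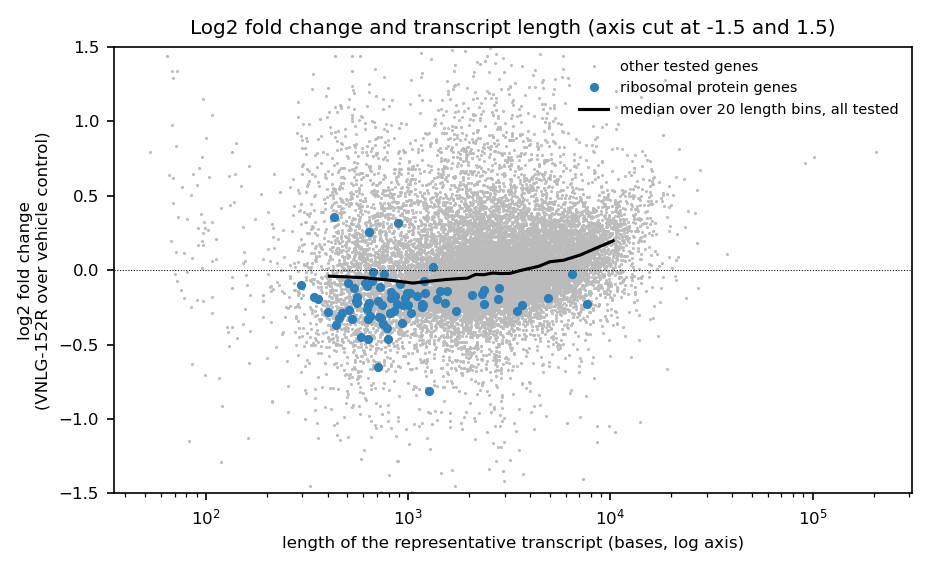
Log2 fold change (VNLG-152R over control) against transcript length in bases on a log axis, with all tested genes in grey, ribosomal protein genes in blue and a black line for the median of all tested genes by length. The ribosomal protein genes, both those of at most 1000 bases (median −0.22) and longer ones (median −0.19), have medians below that of short genes without them (−0.05).

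Levels between genes were compared per kilobase of transcript. The genes with the highest levels in controls had the following group means in CPM per kilobase. RPL8 had 1327 with VNLG-152R against 1508 in controls, RPS2 had 1238 against 1379, and RPLP0 had 1181 against 1316. RPL12 had 929 with VNLG-152R against 1090 in controls, and RPS3 had 965 against 1088. RPL8 and RPS2, a rRNA-binding core protein and a protein at the mRNA entry, had log2 fold changes of −0.18 and −0.15 (adjusted p = 0.246 and 0.290). The lowest among tested genes in controls were RPL7A at 0.276, RPS10 at 1.54, RPL36A at 3.96, RPS27L at 4.34 and RPL17 at 4.43 CPM per kilobase. For 17 of the 81 genes the representative transcript and the median transcript differ in length by more than 2 times, and the order depends on which is used. With median lengths the highest in controls were RPLP0 at 2024, RPL8 at 1994 and RPL3 at 1509 CPM per kilobase, and RPS27L was at 30.3, above RPS15A at 22.2 and RPL26 at 24.6. In 61 of the 81 genes the level was over 100 CPM in every library.

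Genes that work with the ribosomal proteins but lie outside the naming rule were examined as lists. Of 7 ribosomal proteins and close paralogs with other names, all 7 had a log2 fold change below 0 (median −0.25). By edgeR, 0 passed the test at an adjusted p under 0.05 and 6 were lower at an unadjusted p under 0.05 (9.76% of all tested genes). In 6 the groups did not overlap, with VNLG-152R below control (13.4% of all tested genes). DESeq2 called 3 of these 7 lower at an adjusted p under 0.05 (3.1% of all tested genes). FAU, a ubiquitin-like protein fused to a small subunit protein, had 33.5, 36.3 and 33.2 CPM with VNLG-152R, against 62.6, 39.5 and 43.0 CPM in controls (log2 fold change −0.49, adjusted p = 0.0671). Its log2 fold change was −0.27 when control replicate 1 was left out, and −0.63 (adjusted p = 0.0299) when control replicate 2 was. RACK1, the scaffold on the small subunit head, had 1094, 1046 and 1058 CPM with VNLG-152R, against 1139, 1203 and 1207 CPM in controls (log2 fold change −0.15, adjusted p = 0.309). In both of them the treated libraries were below the controls.

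Other RNAs of the TOP class include mRNAs of translation factors and some further genes. Among the further genes listed are GAS5 and SNHG1, noncoding snoRNA host transcripts. Both had overlapping groups (log2 fold change −0.27 and −0.20, adjusted p = 0.349 and 0.385). Of 26 such genes, 25 were tested (EEF1G had 0 counts in every library), 20 were below 0, the median log2 fold change was −0.14, and 6 had all VNLG-152R libraries below all controls (24% of the 25, against 13.4% of all tested genes). At an adjusted p under 0.05, 2 fell (8%, against 1.43% of all tested genes) and 0 rose (against 3.76%). NACA, a chaperone of nascent peptides at the exit tunnel, had 174.2, 179.0 and 184.0 CPM with VNLG-152R, against 285.5, 216.9 and 217.8 CPM in controls (log2 fold change −0.42, adjusted p = 0.0423). VIM, the intermediate filament protein vimentin, had 4323, 3397 and 3882 CPM with VNLG-152R, against 4911, 5166 and 5159 CPM in controls (log2 fold change −0.39, adjusted p = 0.0472). NPM1, a nucleolar chaperone of ribosome assembly, had 865, 942 and 997 CPM with VNLG-152R, against 1275, 1087 and 1095 CPM in controls (log2 fold change −0.30, adjusted p = 0.0930). Both called genes kept their call in 8 of 16 alternative fits. With 1 library left out, the call of NACA held only without control replicate 2 and that of VIM only without VNLG-152R replicate 1, with adjusted p of up to 0.118 and 0.174 otherwise.

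The 8 chaperones and assembly factors of single ribosomal proteins (GRWD1, BCCIP, PDCD2, PDCD2L, TSR2, LTV1, HEATR3 and RPS19BP1) all had every VNLG-152R library below every control (13.4% of all tested genes), with log2 fold changes between −0.47 and −0.10. None of the 8 passed the test by edgeR. The RNA-binding proteins LARP1, LARP1B, LARP4 and LARP4B, of which LARP1 binds the TOP motif, had log2 fold changes between −0.00 and 0.07 and overlapping groups. Over these 12 genes the median was −0.17, 9 were below 0, 5 were lower at an unadjusted p under 0.05 (9.76% of all tested genes), and DESeq2 called 3 lower at an adjusted p under 0.05 (3.1% of all tested genes).

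Tested genes were also grouped by the pyrimidine run. The 50 tested genes with a run of at least 8 C or T near the start had a median log2 fold change of −0.22. Of these, 3 were lower at an adjusted p under 0.05 (1.43% of all tested genes). In 18 every VNLG-152R library was below every control (13.4% of all tested genes). The 11 tested genes with a matched start region and no such run also had a median of −0.22, with 0 lower. In 8 of them every VNLG-152R library was below every control. The difference between them was not tested.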

How the data were processed

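Polyadenylated RNA of MDA-MB-231 cells had been read from both ends of strand-specific libraries. The authors deposited unnormalized counts of reads per Ensembl gene identifier, sample by sample. The submitters' processing notes name HISAT, HTSeq, DESeq and GRCh38. No version, annotation release or strand setting is given in the sources used here. HTSeq's special classes stayed out of library sizes. Read pairs in no gene made up 3.36% to 5.05% with VNLG-152R and 2.63% to 3.17% in controls, and pairs not placed uniquely 7.81% to 8.12% with VNLG-152R and 7.83% to 7.95% in controls.

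TMM-scaled counts of all 17084 genes kept by filterByExpr were tested by edgeR 4.0.16 (glmQLFit and glmQLFTest, R 4.3.3), with p-values adjusted by Benjamini-Hochberg and called at 0.05. The biological coefficient of variation was 0.105 and 4 residual degrees of freedom remained. Standard errors of fold changes were computed from the F statistic. CPM are TMM-scaled. Coordinates, lengths, exon overlaps and shared windows of 100 bases come from GENCODE release 29 (the authors may have counted with another), and start regions from RefSeq. Alternatives were DESeq2 1.42.0, limma-voom (limma 3.58.1), RLE, library size, TMM without the ribosomal protein genes, no filter, at least 1 CPM, thinning to the shallowest library (seed 1), a length correction (lowess, span 0.3), replicate number as a block, other thresholds, and leaving out each library. Repeating the count of genes with every VNLG-152R library below every control without each library was chosen after seeing the data.

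The genes and lists were chosen with earlier results of these data known. Named genes are those called, the 8 most negative and 8 most positive log2 fold changes, the 5 highest and 5 lowest levels per length, genes at 0, untested or under 10% of the median member's count, paralog pairs, the stalk proteins, RPSA, RPS18, called genes of the other lists, FAU and RACK1. Not every one is printed with its values, and some are not reported here. RPL5, RPL11, RPL24, RPS3, RPS3A, RPS6, NPM1 and single pseudogenes were named after their values were seen. The 3-count limit covers counting error only.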

Additional observations from a re-analysis of the deposited data

How the results depend on the processing

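In the main fit 3 of the 76 ribosomal protein genes were lower, and in every setting 0 were higher. RPL19, RPS12 and RPS24 were the calls also with RLE, TMM without the ribosomal protein genes, library size, limma-voom and at least 1 CPM. DESeq2 called 12 lower (8 large and 4 small subunit genes), no filter 15 (6 and 9), thinning 4 (2 large), the length correction 1 (0 large, 1 small), and thresholds of 0.01 and 0.1 gave 0 and 9. When 1 library was left out, 0 to 15 were lower (large 0 to 6, small 0 to 9): 15 without VNLG-152R replicate 2, 3 without its replicate 1, 1 without control replicate 2 and 0 in the other cases. Of all tested genes, 0.25% to 1.98% were lower in these fits. The median of the 76 then stayed between −0.28 and −0.16. Every VNLG-152R library kept was then below every control kept in 32 to 66 genes (42.1% to 86.8%), against 16.5% to 20.02% of all tested genes. Over all genes, lower calls were 529 with DESeq2, 483 without a filter, 44 and 578 at thresholds of 0.01 and 0.1 and 44 to 347 with 1 library left out, and higher calls 1056 without a filter and 220 to 601 with 1 library left out. Of the 7 ribosomal proteins with other names DESeq2 called 3 lower, no filter 2 and leaving out 1 library 0 to 2. Of the other TOP genes, library size and at least 1 CPM called 1 each, the length correction 0 and leaving out 1 library 0 to 1. Of the chaperones and LARP genes DESeq2 called 3, no filter 2, the length correction 1 and leaving out 1 library 0 to 1. The median level per length in controls was 623 CPM per kilobase with median transcript lengths. Log2 fold changes near 0 changed sign with 1 library left out, in the ranges −0.11 to 0.086 (RPS28), −0.17 to 0.14 (RPL17), −0.051 to 0.46 (RPS10), −0.28 to 0.16 (RPS27L), −0.13 to 0.036 (RPL39L), −0.23 to 0.027 (RPLP1) and −0.44 to 0.089 (RPL24). RPL17 was at 0.020 after thinning and 0.042 after the length correction, and RPL39L at 0.033 after that correction. The cause was not tested.

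The replicate numbers are shared by both groups, but same-numbered libraries did not deviate together (r = −0.19, −0.17 and −0.11 over all genes), so they were not taken as pairs. With replicate number as a block, 0 ribosomal protein genes were lower (0 large, 0 small), 0 of the other TOP genes, and over all genes 87 were lower and 310 higher.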
